A study of Rattus norvegicus with 6 samples.

Results

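The transcripts of ADAM and ADAMTS proteases were followed in Achilles tendons of newborn rats, in 3 arrays of post-natal day 1 and 3 of post-natal day 7. The set was named by gene symbol and held 9 genes, of which 8 (Adam19, Adamts1, Adamts4, Adamts5, Adamts7, Adamts9, Adamts12 and Adamts15) were found among the 14217 genes that a probe set of a rat Affymetrix expression array names alone. Adam12 was not analysed here. All 6 arrays carried RNA of untreated tendons, each from a pool of at least 2 animals, so p-values measure the spread between pools. Neither strain nor sex of the animals is stated in the labels. The comparison of the 2 ages asks how transcript levels in the tendon change over the first week after birth.

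ADAM proteins are membrane-anchored metalloproteases that release the outer parts of cell surface proteins, among them growth factor precursors. ADAMTS proteins are their secreted relatives, which carry thrombospondin repeats and cut proteoglycans and other proteins of the extracellular matrix. They are made as inactive precursors, activated by proprotein convertases such as furin, held in check by tissue inhibitors of metalloproteases, above all Timp3, and cleared from the matrix through the endocytic receptor Lrp1. In tendon, ADAMTS enzymes are known for the turnover of aggrecan and versican.

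None of the 8 proteases passed the test between the ages (limma, adjusted p under 0.05), either higher or lower on day 7. Over all genes tested, 1.93% were higher and 3.15% lower by the same rule, so a count of 0 among 8 is near the background. At an unadjusted p under 0.05, 1 of the 8 was lower, Adam19, and 0 were higher, against 17.0% and 10.6% of all genes. Log2 changes here are day 7 minus day 1 of log2(intensity + 1), with the moderated standard error (SE). They were below 0 for 5 of the 8 and above 0 for 3, between -0.42 and 0.11. Their median was -0.19, against -0.01 over all genes, and the median size regardless of sign was 0.19 against 0.20. All 8 were among the 9607 genes left when only brighter probe sets were kept, and the median over those genes was -0.10. With quantile normalization the 8 changes ran from -0.31 for Adam19 to 0.22 for Adamts12, beside a median of 0.0023 over all genes. A lean of the 8 away from genes of like brightness was not tested. The 95% intervals of the change (unadjusted, from limma) lay inside a 2-fold change either way for all 8, as they did for 88.4% of all genes. At that level the data bound each change to less than 2-fold, and do not show that the levels were equal.

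**Figure D1:**
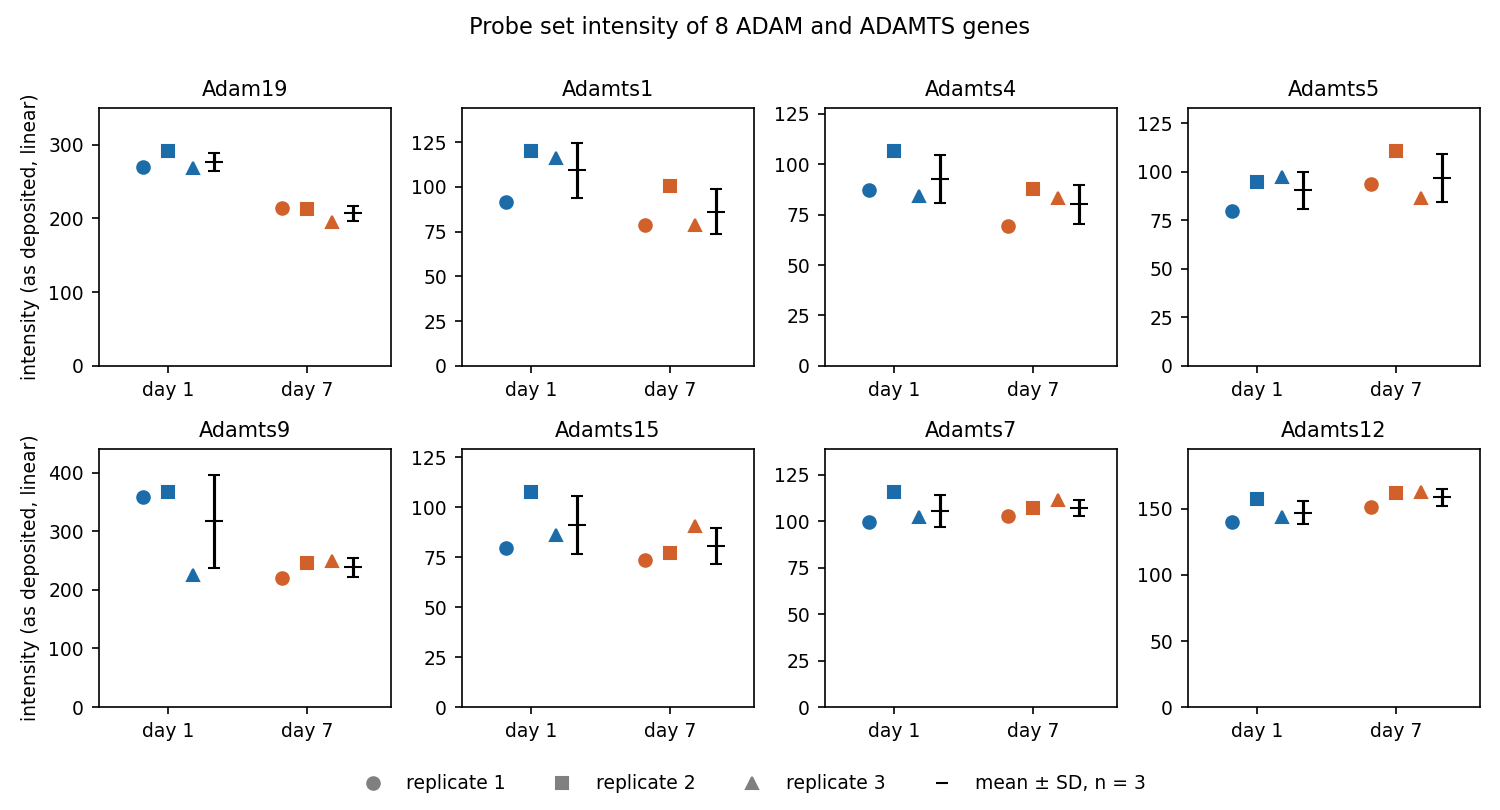
Deposited intensity (linear axis from 0, a scale of its own in each panel) of the 8 measured genes on the 3 arrays of each age, with the mean and SD (n = 3) in black. The ages separate in the Adam19 panel, where day 1 lies between 268.2 and 291.2 and day 7 between 195.2 and 213.6, and overlap in the other 7.

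The level of every one of the 8 was well above the negative controls. The array's trp probe sets, which match a bacterial gene and serve as blanks, read between 3.74 and 4.76. A mean under 2 times the highest of them, 9.51, was treated as near background. The 8 probe sets that represent the genes read between 69.1 and 366.4 on the 6 arrays, and the highest array exceeded the lowest by between 1.16-fold for Adamts12 and 1.66-fold for Adamts9. Intensities of different probe sets are not comparable as amounts, so no order of abundance among the genes is drawn.

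Adam19 encodes meltrin beta, a membrane-anchored protease known to release neuregulins from the cell surface. Its intensity was 270.1, 291.2 and 268.2 on day 1 (replicates 1, 2 and 3) and 213.6, 212.5 and 195.2 on day 7. The 3 day 7 arrays lay below all day 1 arrays, which held for 19.1% of all genes, and the highest array of each age exceeded the lowest by 1.09-fold. The means were 276.5 ± 12.8 and 207.1 ± 10.3 (SD, n = 3), a log2 change of -0.42 (SE 0.10, 95% interval -0.65 to -0.18), equal to a 1.33-fold higher level on day 1. With limma's adjusted p = 0.0690 it did not pass. It passed with a pseudocount of 16 in place of 1 (adjusted p = 0.0375, log2 change -0.39) and with array weights (adjusted p = 0.0499), and the adjusted p ran from 0.0375 to 0.538 over the alternatives, the highest with the mean of all its probe sets.

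The other 3 probe sets of Adam19 fell into 2 kinds, drawn in the plot of its probe sets. The second bright one read 84.7, 84.7 and 73.2 on day 1 and 61.6, 70.6 and 60.3 on day 7, again with no overlap between the ages and a log2 difference of -0.33 (SE 0.12; limma adjusted p = 0.157). The dim pair had means between 6.02 and 9.22 at either age, near background, with log2 changes of 0.15 and 0.20. The dimmer of the pair also had no overlap, in the opposite direction, at 5.98 to 6.10 on day 1 and 6.12 to 7.33 on day 7. Absence of overlap in 3 against 3 arrays is therefore weak evidence. The dim pair carries no usable fold, and the mean over the 4 probe sets, with a log2 change of -0.10, gives all of them equal weight.

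**Figure D2:**
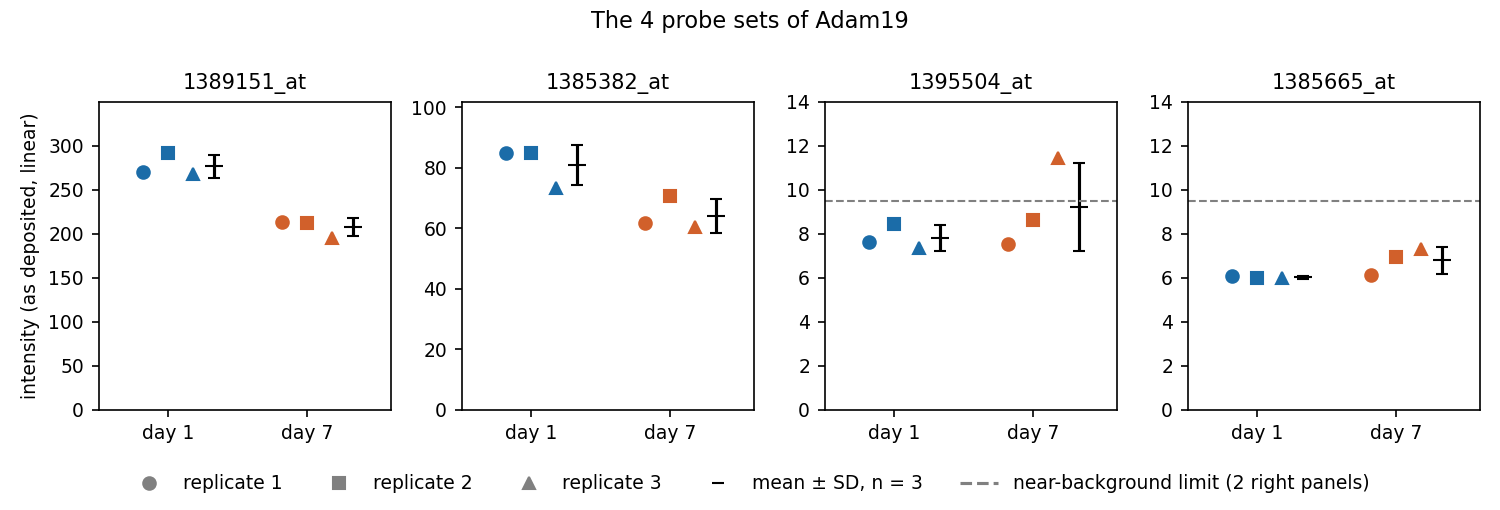
Deposited intensity (linear axis from 0) of the 4 probe sets of Adam19 on the 3 arrays of each age, with the mean and SD (n = 3) in black and, in the 2 right panels, the near-background limit of 9.51 as a dashed line. Both bright probe sets are lower on every day 7 array, while the dim pair has means below the limit at both ages.

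The upstream windows of Adam19 and Adamts1, the pair with the smallest adjusted p among the 8, are printed to show the sequence at their gene starts. The array says nothing of what binds there. Each holds the 250 bases before the start, on the gene's own strand, 5′ to 3′ (RefSeq, GRCr8), at chr10:30992511-30992760 (+ strand) for Adam19 and chr11:38427385-38427634 (- strand) for Adamts1. Capitals mark matches on either strand to 4 motifs. The AP-1 site was searched as TGANTCA. The GC box was searched as GGGCGG. The TATA box was searched as TATAAA. The last was the CCAAT box, searched by the letters of its name.
Adam19: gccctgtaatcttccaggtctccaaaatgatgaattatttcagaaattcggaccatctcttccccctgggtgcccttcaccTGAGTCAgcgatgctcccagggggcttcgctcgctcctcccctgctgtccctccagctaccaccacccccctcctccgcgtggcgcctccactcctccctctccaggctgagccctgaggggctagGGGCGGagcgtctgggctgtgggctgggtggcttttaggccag
Adamts1: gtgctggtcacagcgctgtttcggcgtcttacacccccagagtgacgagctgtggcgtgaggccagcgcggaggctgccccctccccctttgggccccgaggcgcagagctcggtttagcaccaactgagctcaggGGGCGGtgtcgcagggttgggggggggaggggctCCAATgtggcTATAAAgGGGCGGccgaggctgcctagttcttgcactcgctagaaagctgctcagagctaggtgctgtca

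The Adam19 window held 1 AP-1 match, a sequence found in 6.34% of 33469 RefSeq windows of that length, and 1 GC box, found in 30.5%. The Adamts1 window held 2 GC boxes, a TATA box (12.9% of windows) and a CCAAT box (34.0%), and none of these matches overlapped another. RefSeq windows matched 7 of the 9 genes by symbol, 6 of them measured. Among the measured, Adamts9 had 21 CpG dinucleotides in its window, Adamts1 15, Adam19 9, Adamts12 5, Adamts4 4 and Adamts7 0, against a median of 5 over all windows, so the genes share no common CpG content. A match describes letters and no site of binding.

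The genes Adamts1, Adamts4, Adamts5, Adamts9 and Adamts15, encode proteoglycan-cleaving enzymes, with aggrecan and versican as known targets. Adamts1 is also known for its part in ovulation and in the vessel wall. It read 91.6, 119.9 and 116.3 on day 1 and 78.7, 100.7 and 78.9 on day 7. The ranges overlapped through day 1 replicate 1 and day 7 replicate 2, and the log2 change was -0.34 (SE 0.15, 95% interval -0.69 to 0.01; limma adjusted p = 0.243).

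Adamts4 and Adamts5 are the aggrecanases best known from cartilage. Adamts4 read 87.1, 106.4 and 84.2 on day 1 and 69.1, 87.7 and 83.2 on day 7, a difference of -0.21 on the log2 scale (SE 0.14; limma adjusted p = 0.430). Adamts5 read 79.5, 94.8 and 97.2 on day 1 and 93.5, 110.6 and 86.3 on day 7, a difference of 0.09 (SE 0.14; adjusted p = 0.730). The ages overlapped for both. For Adamts4 the difference ran from -0.28 to -0.10 when 1 array was left out. A further probe set of Adamts5 showed a log2 change of 0.11 (adjusted p = 0.576), close to the first. Without day 7 replicate 2 the change of the brighter Adamts5 probe set was -0.0048, so the direction of that probe set rested on this array.

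Adamts9, known to cut versican and aggrecan, was the least even of the 8 on day 1. It read 358.7, 366.4 and 225.2 on day 1 and 220.1, 246.6 and 249.2 on day 7, so that day 1 replicate 3 stood among the day 7 values while the other day 1 arrays lay above all of them. The log2 change was -0.38 (SE 0.19, 95% interval -0.82 to 0.07; limma adjusted p = 0.300), and -0.60 (adjusted p = 0.0763) without day 1 replicate 3. It shrank to -0.27 (limma adjusted p = 0.581) without day 1 replicate 1 and to -0.25 (0.509) without day 1 replicate 2. With the mean of its probe sets it was -0.18 (0.451). Day 1 replicate 3 also had the lowest summed intensity of 6 tendon markers, 22911, against 33206 and 39691 on the other day 1 arrays. The part of this in the result was not tested. A further probe set of Adamts9 read between 5.36 and 9.39, near background.

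Adamts15, a proteoglycanase known from muscle and cartilage matrix, read 79.6, 107.5 and 86.0 on day 1 and 73.7, 77.2 and 90.8 on day 7. The ranges overlapped, and the log2 change was -0.17 (SE 0.15; limma adjusted p = 0.546). It ran from -0.26 to -0.04 when 1 array was left out, nearest to 0 without day 1 replicate 2, the highest of the 6.

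Adamts7 and Adamts12 form a closely related pair known to cut cartilage oligomeric matrix protein. Adamts7 read 99.4, 115.5 and 102.0 on day 1 and 102.7, 107.1 and 111.1 on day 7, with all day 7 values inside the day 1 range and a log2 change of 0.02 (SE 0.11, 95% interval -0.23 to 0.27; limma adjusted p = 0.933). That change was -0.02 without day 1 replicate 1, -0.0030 when day 1 replicate 3 was left out and -0.0067 in the fit lacking day 7 replicate 3, so it has no direction. Adamts12 read 140.2, 157.3 and 144.0 on day 1 and 151.5, 162.0 and 162.6 on day 7, with a log2 change of 0.11 (SE 0.10, 95% interval -0.13 to 0.35; adjusted p = 0.581). Their target Comp was 4.84-fold higher on day 7.

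Adamts1 and Adamts5 are neighbours on rat chromosome 11, with no protein-coding gene between them in RefSeq, and had log2 changes of -0.34 and 0.09. Adamts15 likewise adjoins Adamts8 on chromosome 8. Adamts8, another proteoglycanase, read 41.5, 40.1 and 93.3 on day 1 and 35.9, 46.7 and 24.0 on day 7 (a log2 change of -0.63, SE 0.35; limma adjusted p = 0.337), a spread set by day 1 replicate 3. No difference within either pair was tested.

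Within an age, most of the proteases were highest or lowest on the same array. Day 1 replicate 2 was the highest day 1 array for 7 of the 8 (all but Adamts5), against 34.8% of all genes. Day 7 replicate 1 was the lowest day 7 array for 6 of the 8 (all but Adam19 and Adamts5), against 28.0% of all genes. Some other groups of genes were also mostly highest on day 1 replicate 2. These were 14 of 15 measured ADAMTS substrates, 11 of 13 inhibitors, activators and clearance genes, 5 of 5 ADAMTS-like genes and 6 of 6 tendon markers. The share was smaller among other ADAM genes (3 of 9), other ADAMTS genes (3 of 5) and ADAM substrates and ligands (7 of 12). Fmod is in both the substrate and the tendon list. The same array was highest for 6 of 7 macrophage, 4 of 5 Schwann cell and 6 of 8 cartilage markers. It was highest for 2 of 4 bone, 2 of 7 adipocyte, 1 of 7 endothelial and 1 of 6 mural markers. For skeletal muscle it was 0 of 11 and for epidermis 0 of 6. On day 7 replicate 1, where most of the proteases were lowest, 5 of the 6 tendon markers were at their day 7 highest. The choice of these arrays followed from their values, so the counts are a description. The arrays also differed in the ratio of 3′ to 5′ control probe sets, which reflects RNA integrity. For beta-actin it was 2.44, 2.85 and 1.80 on day 1 (replicates 1, 2 and 3) and 2.40, 2.17 and 3.35 on day 7. For GAPDH it was 1.74, 1.80 and 1.75 on day 1 and 2.09, 1.73 and 2.00 on day 7. The part of RNA integrity in the protease values was not tested.

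**Figure D3:**
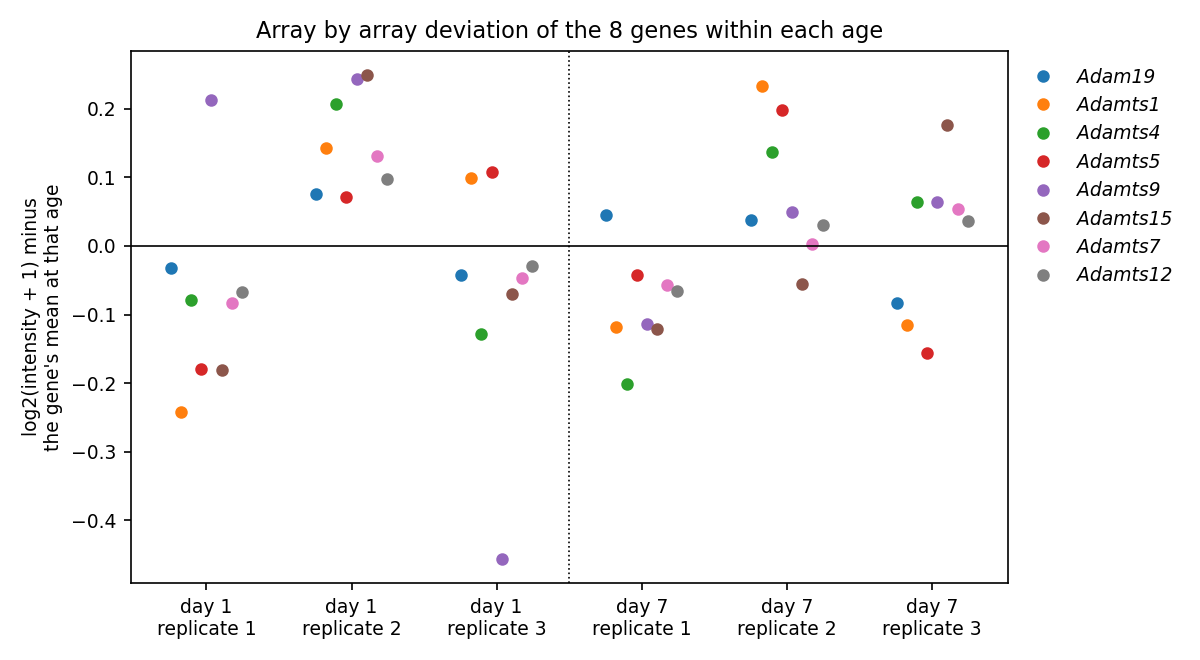
For each of the 8 genes and each array, log2(intensity + 1) minus the mean of that gene over the 3 arrays of the same age. All 8 genes lie above 0 on day 1 replicate 2, and Adamts9 lies at -0.46 on day 1 replicate 3, the farthest point from 0.

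Marker genes show what else the pools held. Intensities of skeletal muscle markers (11 measured of 12) summed to 43693 to 53833 on day 1 and 25984 to 39336 on day 7, and epidermal markers (6 of 6) to 5675 on day 1 replicate 1 against 155.5 to 402.9 on the other arrays. The sums of adipocyte markers (7 of 7) were 1491 to 1717 on day 1 and 2873 to 6086 on day 7. Cartilage markers (8 of 9) gave 1051 to 2891 and 2931 to 5492 at these ages, and tendon markers (6 of 7) 22911 to 39691 and 41188 to 53675. Schwann cell markers (5 of 7) summed to 1806 to 2137 on day 1 and to 5432, 2161 and 8144 on day 7 replicates 1, 2 and 3. Mural markers (6 of 6) gave 1179 to 1458 on day 1 and 1467 to 1741 on day 7, macrophage markers (7 of 7) 950.2 to 1465 and 791.7 to 1019, endothelial markers (7 of 8) 1800 to 2381 and 2097 to 2492, and bone markers (4 of 6) 45.1 to 56.1 and 37.3 to 54.1. Some markers moved against the sum of their list. Of the skeletal muscle markers, 5 passed as lower and 1, Myh2, as higher (6.52-fold, limma adjusted p = 0.0277). Only Adgre1 passed among the macrophage markers, and it was higher on day 7 (2.27-fold, limma adjusted p = 0.0190). Of the Schwann cell markers, S100b passed as higher and Ngfr as lower (limma adjusted p = 0.0443 and 0.0483). Since probe sets are not comparable as amounts, a sum does not measure the share of a cell type. It weighs the bright probe sets most. In the tendon list these were Col1a1 and Col1a2, with means of 9866 and 12221 on day 1 and 13729 and 16381 on day 7. None of the 6 tendon markers passed, and Scx had a log2 change of 0.13 (limma adjusted p = 0.646). The tendon markers Scx and Tnmd were present on all arrays, with lowest values of 603.1 and 2279. The part of these cells in the protease values was not tested, and in pooled tissue fewer cells of a type and less RNA per cell cannot be told apart. Without the array rich in epidermis, day 1 replicate 1, none of the 8 proteases passed and their log2 changes ran from -0.46 for Adamts1 to 0.07 for Adamts12.

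Around the proteases stood 6 further lists of relatives, partners and substrates, with 59 of 72 genes measured, 11 of them near background at both ages. Of the 59 measured, 5 rose and 2 fell, 11.9% in all, beside 1.93% higher and 3.15% lower among all genes. The median log2 change was 0.08 against -0.01 over all genes. The lists were chosen with earlier results of these data known, so these shares are a description and no test of the lists. All 7 calls were lost without day 1 replicate 1 (adjusted p from 0.0520 to 0.131) and without day 7 replicate 1 (0.0793 to 0.136). The same 5 (Adamtsl4, Pcsk6, Dcn, Comp and Sdc1) were lost when day 1 replicate 3 (0.0736 to 0.119) or day 7 replicate 2 (0.0515 to 0.0746) was left out, without day 7 replicate 3 the calls of Adam23, Adamtsl4, Dcn and Sdc1 (0.0502 to 0.0650), and without day 1 replicate 2 those of Adamtsl4 and Sdc1 (0.0510 to 0.0532).

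Among 9 other measured ADAM genes, Adam23 fell and the other 8 did not pass. Adam23 encodes a family member without protease activity that binds integrins. It read 343.7, 340.9 and 287.0 on day 1 and 178.5, 184.5 and 191.6 on day 7, a 1.74-fold lower level on day 7 with no overlap (log2 change -0.80, SE 0.11; limma adjusted p = 0.0191; 0.0619 with the mean of its probe sets). The general sheddase Adam17 showed a log2 change of -0.08 (adjusted p = 0.700), Adam15 one of 0.22 and Adam10 one of -0.22, the last from values between 16.5 and 32.9. None of 5 other measured ADAMTS genes passed. Adamts19 was nearest, with a log2 change of 0.29 (limma adjusted p = 0.214) and day 7 values of 87.1 to 106.3 above day 1 values of 71.4 to 83.1, and Adamts16 followed with 0.29 (0.243). The procollagen-processing genes Adamts2, Adamts3 and Adamts14 were not analysed here.

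ADAMTS-like proteins keep the matrix-binding domains and lack the protease. Of 5 measured, Adamtsl4, a binding partner of fibrillin microfibrils, passed with a 1.57-fold rise, and none passed as lower. Adamtsl4 read 289.2, 300.2 and 259.8 on day 1 and 447.3, 493.7 and 395.2 on day 7 (a log2 change of 0.65, SE 0.12; limma adjusted p = 0.0362). Adamtsl2, which also binds the fibrillin network, read 38.4, 65.7 and 51.0 on day 1 and 110.4, 84.2 and 84.1 on day 7, without overlap (log2 change 0.85, SE 0.20; adjusted p = 0.0635).

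Of 13 genes of activation, inhibition and clearance, Pcsk6 passed as higher and none passed as lower. Pcsk6 encodes PACE4, a proprotein convertase that can activate ADAMTS precursors. It read 81.9, 91.0 and 72.8 on day 1 and 198.6, 174.5 and 130.3 on day 7, a 2.01-fold rise (log2 change 1.01, SE 0.17; limma adjusted p = 0.0282). For Furin, the best known convertase of these enzymes, the log2 change was 0.05 (SE 0.12; adjusted p = 0.852).

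Timp3, the inhibitor with the broadest action on ADAM and ADAMTS enzymes, read 623.5, 855.6 and 641.6 on day 1 and 1059, 861.4 and 886.6 on day 7. The day 7 values all lay above those of day 1, by little for replicate 2 of each age (log2 change 0.41, SE 0.16; limma adjusted p = 0.174). Timp2 narrowly missed the threshold (log2 change 0.85, limma adjusted p = 0.0501). Timp1 and Timp4 overlapped between the ages, with log2 changes of -0.33 (limma adjusted p = 0.297) and 0.23 (0.682). The receptor Lrp1 showed a log2 change of 0.44 (adjusted p = 0.200), and Fbln1, a matrix cofactor of Adamts1, one of -0.66 (SE 0.19; adjusted p = 0.0977), with day 7 values of 54.1 to 74.7 below day 1 values of 84.7 to 130.9.

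Of 15 measured ADAMTS substrates, Comp and Dcn passed as higher and none passed as lower. Comp rose from a mean of 277.1 ± 138.4 to 1317 ± 510.5 (SD, n = 3; log2 change 2.28; limma adjusted p = 0.0285; 0.0617 with a pseudocount of 16), and Dcn, which encodes the collagen-binding proteoglycan decorin, rose 1.73-fold (adjusted p = 0.0277). Acan, which encodes aggrecan, read 127.2, 214.2 and 88.9 on day 1 and 414.0, 306.2 and 179.9 on day 7, with overlap (log2 change 1.07, SE 0.37; adjusted p = 0.147). Vcan, which encodes versican, read 952.3, 1205 and 1065 on day 1 and 862.2, 936.8 and 744.5 on day 7, without overlap (log2 change -0.34, SE 0.14, limma adjusted p = 0.196). Fbn2, which encodes a fibrillin, read 983.7, 1375 and 657.3 on day 1 and 511.5, 587.8 and 587.1 on day 7. Its ages did not overlap either (log2 change -0.78, SE 0.24, limma adjusted p = 0.117).

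Of 12 measured substrates and ligands of ADAM enzymes, Sdc1 rose and Dlk1 fell. The cell surface proteoglycan syndecan-1, encoded by Sdc1, read 263.4, 305.0 and 187.8 on day 1 and 804.4, 531.5 and 435.7 on day 7, a 2.31-fold rise (log2 change 1.21, SE 0.25; limma adjusted p = 0.0471; 0.0850 with a pseudocount of 16). Dlk1, a membrane protein released by Adam17, was 2.07-fold lower on day 7 (a log2 change of -1.05, SE 0.13; adjusted p = 0.0141). The Adam19 substrate Nrg1 had means of 8.34 and 8.68, near background. The IGF-binding proteins Igfbp5 and Igfbp3 had log2 changes of 0.58 (adjusted p = 0.0743) and -0.41 (0.121).

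**Figure D4:**
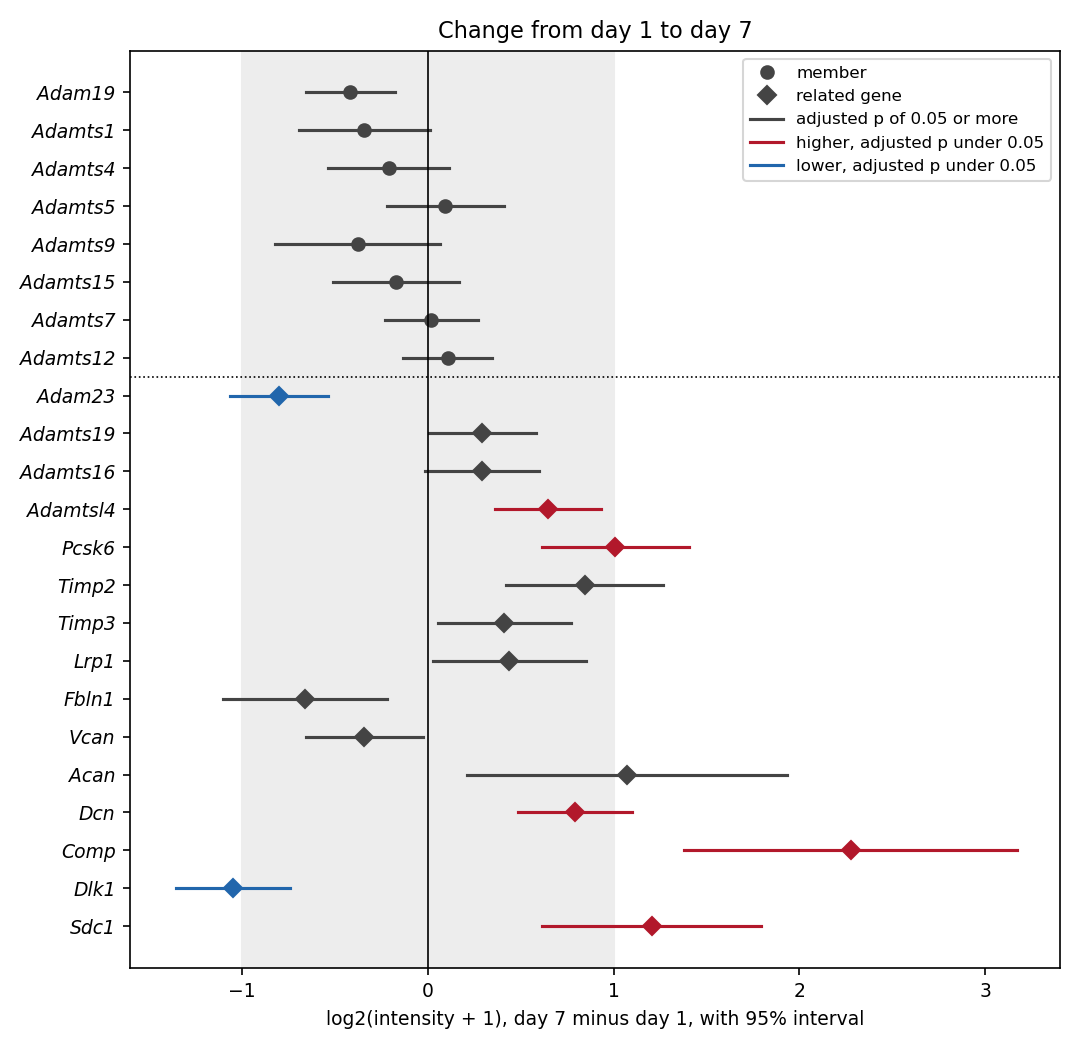
Change from day 1 to day 7 on the log2(intensity + 1) scale with its unadjusted 95% interval, for the 8 proteases (circles) and 15 related genes (diamonds), with the band of less than 2-fold change shaded. The 8 protease intervals lie inside the band, and the coloured points are the 7 related genes that passed limma's adjusted p under 0.05.

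Genes whose log2 values ran most like those of Adam19, Adamts1 and Adamts9 over the 6 arrays were listed by Pearson's r among 9013 genes with a mean intensity of at least 32 at either age. For Adam19 these were Phrf1 (r = 0.998), Timeless (0.994) and Eps15l1 (0.994). For Adamts1 they were Ercc2 (0.993), Pitpnb (0.988) and Dop1b (0.985), and for Adamts9 Mpped2 (0.994), Kmt2a (0.988) and Flna (0.986). With 6 arrays and this many genes such values are a description. Of the 9, Timeless, a replication fork protein, passed the test between the ages (log2 change -0.85; limma adjusted p = 0.0181).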

How the data were processed

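For every array the deposited table lists a linear intensity per probe set; the submitters' processing notes name MAS5 and RMA, with no role or version, and how the authors corrected background or scaled the arrays is not given in the sources used here. Array medians lay between 20.6 and 21.1. From the 31099 probe sets, 57 controls were left out. The other 31042 were transformed to log2(value + 1) and fitted with limma 3.58.1 (R 4.3.3; lmFit, eBayes, two-sided, Benjamini-Hochberg over all of them, threshold 0.05), 3 arrays against 3. A gene was represented by the brightest probe set (mean of log2 values over all arrays) among those the platform annotation gives to it alone. The fit was also run on simulated data with noise independent between arrays and planted changes of 2-fold or more. That run cannot speak to effects shared by many genes of an array, or to changes as small as those of the proteases.

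Members and lists were chosen with earlier results of these data known. Named genes are the members, called genes of each list (otherwise the 2 with the smallest adjusted p), the 3 genes most like each of 3 members, and others named after their values were seen for their role: Timp1, Timp2, Timp3, Timp4, Lrp1, Furin, Acan, Vcan, Fbn2, Fbln1, Adamts8, Adam10, Adam15, Adam17, Adamtsl2, Igfbp3, Igfbp5 and Nrg1. Single cell type markers were also named after their values were seen. Alternatives were quantile normalization, median centring, brighter probe sets only, the mean of probe sets, an intensity trend, array weights, the replicate block, a pseudocount of 16 and each array left out. Arrays have no read depth: their number and the signal over background limit the precision.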

Additional observations from a re-analysis of the deposited data

How the results depend on the processing

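The sign of all 8 protease changes was kept under the 8 alternatives other than leaving out an array. The count of proteases called lower was 0 and became 1 (Adam19) with array weights and with a pseudocount of 16; the count called higher was 0 throughout. Leaving out 1 array changed the sign of Adamts5 (log2 change -0.0048 to 0.172) and Adamts7 (-0.021 to 0.086) and of none of the other 6. Of the related lists, 5 genes were higher and 2 lower, against 10 higher with array weights, 3 higher with a pseudocount of 16, 1 lower with the mean of probe sets, and 0 to 8 higher and 0 to 2 lower without 1 array. Over all genes, 274 higher and 448 lower became 538 and 897 with array weights, 182 higher with a pseudocount of 16, and 4 to 271 higher and 0 to 382 lower without 1 array, fewest without day 7 replicate 1. Quantile normalization called 352 and 320, 52.4% higher against 38.0%. With the replicate block, 0 and 0 genes of the related lists and 25 and 8 genes in all were called, and Adam19 had an adjusted p of 0.174; the arrays of 1 number did not deviate together (correlations of 0.05, -0.25 and -0.14), 1 of the 6 correlated best with its own number, and the labels do not say that numbers pair the pools. The cause of these differences was not tested. Values near the trp controls limit the dim probe sets of Adam19 and Adamts9.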
